A study of Mus musculus with 18 samples.

Results

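The results below describe how the transcriptional change that 3T3-L1 cells undergo when they become adipocytes differed between MLKL-/- and control cells. Whether the loss of MLKL itself caused the differences was not tested. 3T3-L1 is a mouse fibroblast line that stores fat after hormonal induction in culture. For each gene, the change from J0 (undifferentiated) to J7 (differentiated) in MLKL-/- cells was set against the same change in control (CTL) cells. The measure is the difference of changes, on the log2 scale. A positive value means that the gene rose more, or fell less, in MLKL-/- cells. It used 12 of the 18 RNA sequencing libraries of the series, chosen by sample title: 3 each of J0_CTL, J7_CTL, J0_MLKL and J7_MLKL. All 12 are labelled as untreated total RNA of the same line. The genotype RIPK3-/- was not part of the comparison. Counts in all 4 groups were present for 3044 of the 15194 genes in the deposited tables, and 3032 of them were tested. The labels give neither the editing method nor the number of clones, nor whether libraries of one group came from separate cultures. The p-values therefore measure only the spread between these libraries, which may be technical.

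MLKL is the pseudokinase that, once phosphorylated by RIPK3, inserts into the plasma membrane and opens it in necroptosis, a lytic form of cell death. Adipogenesis in 3T3-L1 cells runs through the transcription factors PPARG and C/EBPA, which switch on genes for fat synthesis, storage and adipocyte hormones, while progenitor, matrix and contractile genes are shut down. Type I interferon acts through a complex that holds STAT2 and IRF9 and binds the interferon-stimulated response element in the promoters of antiviral genes.

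Library totals lay between 21.7 and 34.8 M reads, and the 3044 genes held 22.3 to 27.1% of them. The deposited tables list only genes with an authors' adjusted p under 0.05, so a gene has J0_MLKL counts only if it changed in MLKL-/- cells or differed from CTL at J0. All shares of called genes below are shares of that preselected set. A pair of libraries stood apart, J0_MLKL 2 and J7_MLKL 3. Relative to the other 2 libraries of their groups, the median log2 difference of genes in the shortest tercile was 0.22 and 0.37, and that of genes in the longest tercile was -0.16 and -0.33. Malat1, a nuclear noncoding RNA, stood at 464 CPM (counts scaled by each library's total) in J0_MLKL 2 against 1312 and 1411 CPM in its group. It stood at 290 CPM in J7_MLKL 3 against 1155 and 1491 CPM. The replicates of CTL were tighter: the root mean square log2 difference between libraries of a group was 0.17 to 0.20 in CTL and reached 0.63 in J7_MLKL. The overall counts and the results of some genes and lists, but not all, are therefore also given without both libraries.

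**Figure D1:**
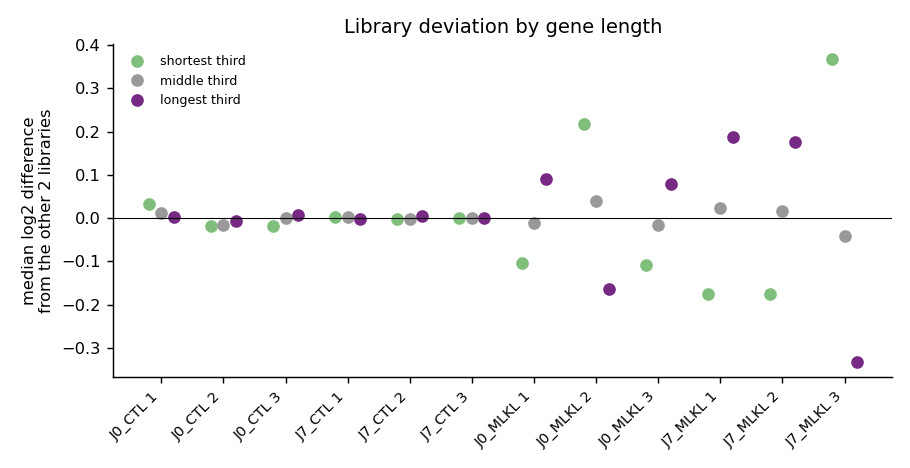
Median log2 difference (y axis) of each of the 12 libraries (x axis) from the other 2 libraries of its group, for the shortest, middle and longest tercile of the genes tested (points). J0_MLKL 2 and J7_MLKL 3 deviate with gene length, from 0.37 for the shortest tercile to -0.33 for the longest tercile in J7_MLKL 3, while all points of the CTL libraries lie near 0.

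Group names follow the sample titles. For J7_MLKL and J7_RIPK3 alike, the genotype field contradicts the title by naming the opposite knockout, so the identity of J7_MLKL rests on the title. Of 21 genes at least 8-fold lower in J0_MLKL than in J0_CTL and within 2-fold of J0_CTL in J0_RIPK3, 16 were at least 4-fold lower than J7_CTL in the libraries titled J7_MLKL (median 7.09-fold). In the libraries titled J7_RIPK3 this held for 1 of the 21 (median 1.43-fold). The reverse choice, genes low in J0_RIPK3 only, held 0 genes, so that side could not be read. The share of all genes that far below J7_CTL was not counted. When the J7 libraries were instead taken by the genotype characteristic, most of the differences described below were lost or turned round, and the counts of the main gene groups are given beside them. Over all genes that fit called 850 of 2838 higher and 822 lower, which is the background for those counts.

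Mlkl itself (ENSMUSG00000012519, mm10 chromosome 8, 111311797 to 111338177) was read in every library. It stood at 18.2, 19.8 and 18.6 CPM in J0_CTL and at 7.24, 9.72 and 7.19 CPM in J0_MLKL. At J7 it stood at 25.4, 27.5 and 26.1 CPM in CTL and at 13.9, 16.4 and 15.02 CPM in MLKL. All MLKL libraries lay below all CTL libraries at both times, and none was near 0. Its difference of changes was 0.40 ± 0.17 (SE) and did not pass the test (edgeR adjusted p 0.0601). It passed without both libraries that stood apart (0.54). Ripk3 (ENSMUSG00000022221, chromosome 14, 55784995 to 55788865), the kinase upstream of MLKL, was also lower in MLKL libraries, at 9.23 ± 2.40 (SD, n = 3) against 18.3 ± 0.84 CPM at J7, and its difference of changes was 0.28 ± 0.28 (edgeR adjusted p 0.401). The position of the edit is not given in the sources used here, so these levels do not test the knockout.

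Across the preselected genes, differentiation changes were smaller in MLKL-/- cells. Of 3032 genes tested, 1992 (65.7%) had a difference of changes that passed edgeR's quasi-likelihood test at an adjusted p under 0.05. It was higher in 1194 (39.4%) and lower in 798 (26.3%), and the median over all tested genes was 0.32. Of the calls, 59.9% were higher. With DESeq2, which changes both the test and the size factors and moved the median by -0.34, 989 were higher and 1069 lower, so 48.1% of calls were higher. Within edgeR, TMM factors gave 1184 higher and 797 lower, and library totals alone gave 1213 and 770. Without the libraries that stood apart, 1366 were higher and 946 lower, and 1968 calls were shared with the full set. The change itself was called for 86.3% of these genes in CTL and for 72.1% in MLKL.

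Most of the called differences were reductions of the CTL change, and fewer were reversals. Among 839 genes that rose in both genotypes, the median rise was 2.13 in CTL and 1.33 in MLKL on the log2 scale, and the difference was called lower in 404 and higher in 54. Among 807 genes that fell in both, the median change was -2.10 in CTL and -0.97 in MLKL, and the difference was called higher in 488 and lower in 43. A further 212 genes rose in CTL and were not called in MLKL, and 424 fell in CTL and were not called in MLKL. Opposite directions were seen for 124 genes that rose in CTL and fell in MLKL, and for 210 that fell in CTL and rose in MLKL. In the authors' deposited tables, 1622 genes are listed for both changes, which is 13.28% of the CTL list and 85.77% of the MLKL list, and 233 of them have opposite directions.

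**Figure D2:**
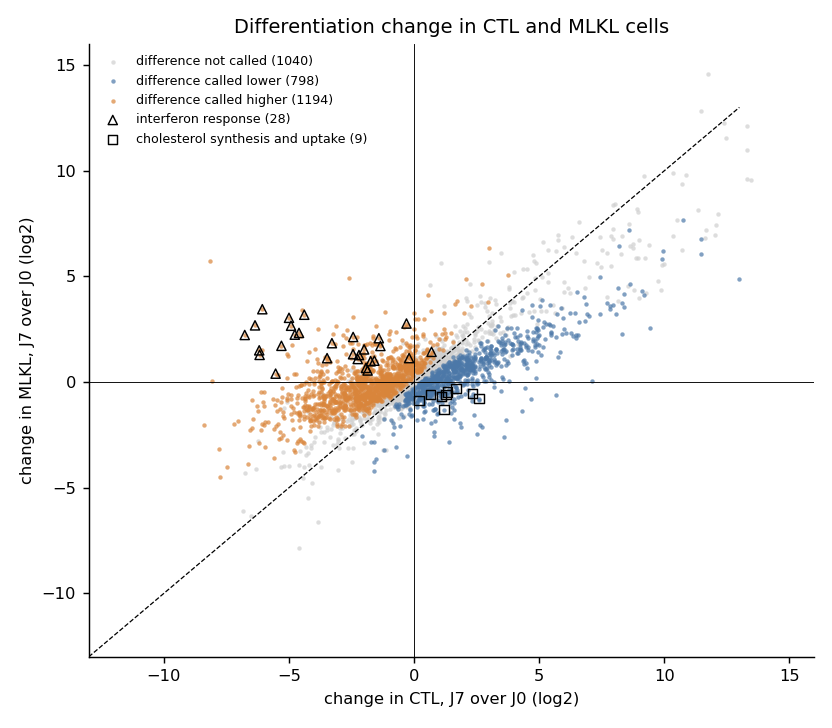
Change from J0 to J7 in CTL (x axis) and MLKL (y axis), log2, for 3032 genes (points), coloured by whether the difference of changes was called. Triangles mark 28 interferon-response genes and squares 9 cholesterol genes; the dashed line marks equal changes. Most called genes lie between the dashed line and the horizontal zero line, interferon genes lie mostly to the upper left and cholesterol genes to the lower right.

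The interferon response separated the genotypes most among the lists examined by median. All 28 members tested, of 38 on the list, had a higher difference of changes (background 39.4%), with a median of 4.59 against 0.32 over all genes. In CTL 25 of the 28 fell (background 47.5%) and 1, Ifi204, rose. In MLKL 26 rose (background 38.6%) and 0 fell. Before differentiation, 26 of the 28 were lower in every J0_MLKL library than in every J0_CTL library (background 38.5%), and after it 26 were higher in every J7_MLKL library than in every J7_CTL library (background 49.0%). The summed level of the list was 854 to 896 CPM in J0_CTL, 258 to 271 in J7_CTL, 409 to 449 in J0_MLKL and 923 to 1397 in J7_MLKL, where J7_MLKL 3 was the highest. Without both libraries that stood apart, 28 were still called higher (median 4.37). With J7 libraries by the genotype characteristic, 17 of 26 were called higher and 0 lower (median 1.09).

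Oas2, an oligoadenylate synthetase that activates the antiviral nuclease RNase L, had the highest difference of the named genes. It stood at 17.1, 19.0 and 16.1 CPM in J0_CTL and at 0.54, 0.16 and 0.075 CPM in J7_CTL. In MLKL it went the other way, from 1.08, 0.92 and 0.97 CPM at J0 to 11.01, 7.88 and 13.5 CPM at J7. No pair of these 4 groups overlapped. The difference of changes was 9.51 ± 0.51 (SE, edgeR adjusted p 3.39e-08). Ifit1, which binds foreign RNA, stood at 37.2, 30.4 and 39.1 CPM in J0_CTL, and fell 112-fold to 0.41, 0.28 and 0.26 CPM in J7_CTL. Its MLKL libraries held 7.33, 7.26 and 7.50 CPM at J0 and 31.8, 41.3 and 31.3 CPM at J7, a 4.67-fold rise. The J7_MLKL and J0_CTL libraries of Ifit1 overlapped, while all others were apart (difference 8.99 ± 0.25, edgeR adjusted p 3.3e-10).

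Several other named interferon genes had the same form. Oasl2, a relative of the oligoadenylate synthetases, fell 84.3-fold in CTL and rose 6.60-fold in MLKL (difference 9.04 ± 0.42). Rtp4, an interferon-induced gene of the receptor transporter protein family, fell 32.9-fold and rose 8.43-fold (8.04 ± 0.53). Ifit3 and Ifit3b, near copies of each other whose reads the counting may have split, had differences of 7.01 and 7.02, and Oas1a, another family member with close relatives, had 6.92. The helicase gene Ddx60 (6.65 ± 0.64) and Plac8 (6.43 ± 0.53) also fell in CTL and rose in MLKL. For Plac8 the J0_MLKL and J0_CTL libraries overlapped, and J7_MLKL 3 held 251 CPM against 108 and 93.4 CPM in its group. Ifi44 fell in CTL and had 6.18 ± 1.19 CPM at J0 and 8.18 ± 1.03 at J7 in MLKL (edgeR adjusted p 0.0628 for that change). The lowest difference in the list belonged to Ifi204 (0.73 ± 0.21). The transcription factor genes Stat2 (2.60 ± 0.14) and Irf9 (2.41 ± 0.16) were called as well. The ubiquitin-like modifier Isg15 stood at 26.3, 25.4 and 29.1 CPM in J0_CTL and at 3.02, 2.52 and 2.65 CPM in J7_CTL. In MLKL its levels were 6.60, 7.57 and 6.37 CPM at J0 and 17.6, 13.7 and 42.3 CPM at J7, so J7_MLKL 3 was the highest (difference 5.12 ± 0.51).

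**Figure D3:**
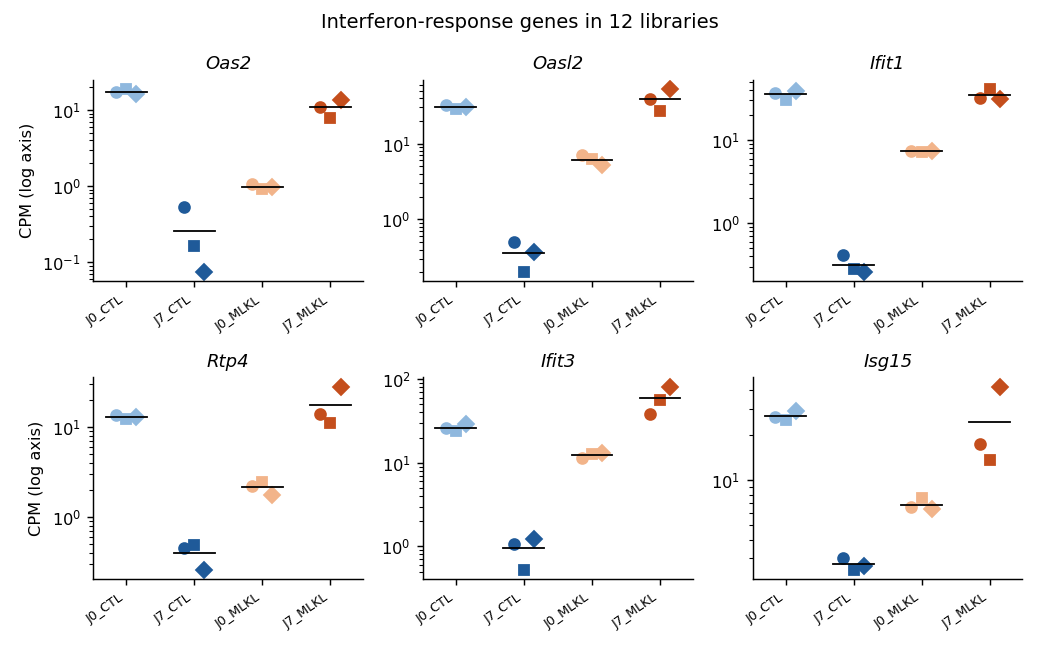
Levels of 6 interferon-response genes in CPM (log axis) in each library (points; circle, square and diamond for replicates 1, 2 and 3) with the mean of each group (bar). Each gene fell from J0_CTL to J7_CTL and rose from J0_MLKL to J7_MLKL, with J0_MLKL below J0_CTL.

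The promoters of these genes are shown because the members moved together. Promoters of 300 bases (250 before to 50 after the start, RefSeq, GRCm38.p6) were matched for 18 of the 28 members, and the core of the interferon-stimulated response element, read as TTTC, 2 bases of any kind and TTTC on either strand, was found in 12 of them (66.7%) against 943 of 27025 promoters of all genes (3.49%). A match is a description of the letters and not a site of binding, and where none was found only these letters are missing from the window. The 6 promoters of the members with the largest differences among those matched follow, 5′ to 3′ on the gene's strand, with matches in capitals, from Oasl2 with 0 matches (chr5:114896684-114896983, plus strand), Ifit1 with 2 (chr19:34640639-34640938, plus strand), Rsad2 with 1 (chr12:26456403-26456702, minus strand), Ifit3b with 2 (chr19:34607707-34608006, plus strand) and Ifit3 with 2 (chr19:34583279-34583578, plus strand) to Oas1a with 2 (chr5:120907476-120907775, minus strand).
Oasl2: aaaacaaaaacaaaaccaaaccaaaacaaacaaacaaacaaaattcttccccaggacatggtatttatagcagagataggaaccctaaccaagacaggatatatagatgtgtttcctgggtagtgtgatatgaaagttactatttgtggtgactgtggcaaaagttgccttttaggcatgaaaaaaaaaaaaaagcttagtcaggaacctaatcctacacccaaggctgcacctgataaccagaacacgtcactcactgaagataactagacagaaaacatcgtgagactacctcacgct
Ifit1: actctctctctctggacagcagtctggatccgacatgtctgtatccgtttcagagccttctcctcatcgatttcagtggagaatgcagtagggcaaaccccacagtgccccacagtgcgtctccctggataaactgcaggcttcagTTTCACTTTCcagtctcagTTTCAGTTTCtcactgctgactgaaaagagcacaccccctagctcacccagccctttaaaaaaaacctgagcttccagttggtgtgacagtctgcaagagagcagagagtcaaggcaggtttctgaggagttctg
Rsad2: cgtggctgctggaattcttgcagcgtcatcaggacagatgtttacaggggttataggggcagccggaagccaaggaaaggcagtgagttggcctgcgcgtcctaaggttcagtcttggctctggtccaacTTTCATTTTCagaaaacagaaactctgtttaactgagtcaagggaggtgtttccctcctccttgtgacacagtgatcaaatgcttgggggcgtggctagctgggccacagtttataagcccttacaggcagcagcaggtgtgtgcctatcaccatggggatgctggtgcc
Ifit3b: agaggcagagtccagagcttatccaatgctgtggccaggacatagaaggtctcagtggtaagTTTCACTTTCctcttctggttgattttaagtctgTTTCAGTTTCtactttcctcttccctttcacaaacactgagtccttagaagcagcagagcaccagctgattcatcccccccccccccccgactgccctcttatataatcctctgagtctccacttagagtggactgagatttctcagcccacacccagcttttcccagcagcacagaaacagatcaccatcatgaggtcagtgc
Ifit3: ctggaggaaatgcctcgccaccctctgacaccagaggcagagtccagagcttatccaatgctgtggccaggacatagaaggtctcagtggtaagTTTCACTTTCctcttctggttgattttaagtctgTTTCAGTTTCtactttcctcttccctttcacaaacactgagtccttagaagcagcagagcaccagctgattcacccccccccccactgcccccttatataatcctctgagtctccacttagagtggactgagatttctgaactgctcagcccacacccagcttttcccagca
Oas1a: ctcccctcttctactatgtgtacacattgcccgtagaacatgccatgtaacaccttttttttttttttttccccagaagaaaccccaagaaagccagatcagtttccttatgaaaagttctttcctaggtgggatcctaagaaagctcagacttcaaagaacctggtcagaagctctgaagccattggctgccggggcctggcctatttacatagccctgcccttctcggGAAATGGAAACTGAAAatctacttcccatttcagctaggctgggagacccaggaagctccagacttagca
In Oas1a the 2 matches overlap and are read on the opposite strand, and in Ifit1, Ifit3b and Ifit3 the pair of matches lies apart.

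Genes of antigen presentation and inflammation followed in the same direction. Of 8 tested genes of MHC class I presentation, 6 had a higher difference (background 39.4%) and 0 a lower one, with a median of 1.13, and all 8 rose in MLKL (background 38.6%). At J0, 7 of the 8 were lower in every MLKL library than in every CTL library (background 38.5%). At J7, 4 were higher in every MLKL library than in every CTL library (background 49.0%), and 1 was lower (background 40.8%). The light chain gene B2m stood at 715, 723 and 676 CPM in J0_CTL and at 294, 313 and 299 CPM in J7_CTL. In MLKL it stood at 499, 618 and 466 CPM at J0 and at 630, 576 and 1145 CPM at J7, where the groups overlapped and J7_MLKL 3 was the highest (difference 1.77 ± 0.31, edgeR adjusted p 0.000402). The proteasome subunit gene Psmb8 (2.31 ± 0.47) and H2-Q4 (3.25 ± 0.42) were called too, while H2-K1 was not (1.04 ± 0.56, edgeR adjusted p 0.125). H2-Q4 stood at 4.67 and 4.65 CPM in J0_CTL and J7_CTL, and at 0.31 and 3.02 CPM in J0_MLKL and J7_MLKL. Its J7_MLKL and J7_CTL libraries overlapped. Reads of the H2 genes may be shared among close copies. Nlrc5, an activator of these genes, was called at 1.06 ± 0.39 but lost its call in several alternatives, among them DESeq2's own size factors (0.74). Its mean level in J7_MLKL, 8.10 CPM, was below the 22.45 CPM of J7_CTL. By the genotype characteristic, 2 of the 8 were higher and 1 lower (850 and 822 of 2838 over all genes).

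Among 8 tested NF-kB and inflammatory targets, 6 had a higher difference (background 39.4%) and 1, the complement gene C3, a lower one. All members but C3 fell in CTL. The macrophage growth factor Csf1 stood at 395, 380 and 402 CPM in J0_CTL and at 46.2, 48.4 and 46.4 CPM in J7_CTL. It went from 391, 394 and 427 CPM in J0_MLKL to 738, 671 and 571 CPM in J7_MLKL, above every other library (difference 3.74 ± 0.12, edgeR adjusted p 7.9e-10). The neutrophil chemokine Cxcl5 fell in both genotypes, to 0.53 ± 0.11 CPM in J7_CTL and to 14.8 ± 0.92 in J7_MLKL (difference 4.07 ± 0.16). The monocyte chemokine Ccl7 (4.02 ± 0.46), the adhesion molecule Vcam1 (3.05 ± 0.14) and the chemokine Cxcl12 (2.19 ± 0.09) were also called. C3 rose in both, from 239 to 2649 CPM in CTL and from 631 to 1742 CPM in MLKL (-2.03 ± 0.14). Of the necroptosis list, 3 genes had counts, and 1 was called higher, a share near the background of 39.4%. It was Zbp1, a nucleic acid sensor that is itself interferon-induced, with 4.02 ± 0.42. With J7 taken by the genotype field 0 of the NF-kB targets were higher and 4 lower.

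The adipogenic programme was induced less in MLKL-/- cells. Of 11 tested adipogenic transcription factors, 6 had a lower difference of changes (background 26.3%) and 1, Klf5, a higher one. Pparg, the nuclear receptor at the head of the programme, stood at 25.6, 27.4 and 26.3 CPM in J0_CTL and at 499, 487 and 488 CPM in J7_CTL. In MLKL it went from 22.0, 22.4 and 17.1 CPM to 57.1, 67.2 and 89.3 CPM, above J0 but far below J7_CTL in every library (difference -2.44 ± 0.22, edgeR adjusted p 1.8e-06). Its partner Cebpa rose 23.5-fold in CTL and 3.13-fold in MLKL (-2.92 ± 0.28). The liver X receptor gene Nr1h3 (-2.76 ± 0.39), the early factor Ebf2 (-1.39 ± 0.40) and the lipogenic factor Srebf1 (-1.23 ± 0.12) were lower too. Klf15 reached 86.1, 80.7 and 87.3 CPM in J7_CTL and 1.70, 1.15 and 3.14 CPM in J7_MLKL, from at most 2 reads in all at J0 in either genotype. Klf5, an early adipogenic factor, rose in both and more in MLKL (1.03 ± 0.24, edgeR adjusted p 0.00293). With J7 by the genotype characteristic, 5 of the 11 were higher and 0 lower. In bulk RNA such values cannot tell fewer cells that differentiated from less RNA in each cell.

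All 26 tested adipocyte hormones and markers, of 28 on the list, rose in both genotypes (backgrounds 38.8 and 38.6%). A marker with almost no reads at J0 in either genotype could be tested only if it changed in MLKL. For such markers the rise in MLKL was set by the preselection, so the count does not test the label of J7 as differentiated. The difference was called lower in 11 (background 26.3%), and in 1, Car3, higher (edgeR adjusted p 0.0491), which rests on 2 J0_MLKL reads. In 13 of the 26 a group had 3 or fewer reads, mostly at J0, and those genes are given by level only. Adipoq, the adiponectin gene, had 0 reads in all 6 J0 libraries and reached 1740, 1704 and 1823 CPM in J7_CTL against 320, 384 and 684 CPM in J7_MLKL. Cfd, which encodes adipsin, reached 1220, 1196 and 1246 CPM in J7_CTL and 225, 276 and 817 CPM in J7_MLKL. In 24 of the 26 every J7_MLKL library lay below every J7_CTL library (background 40.8%). The summed marker level was 33930 to 35650 CPM in J7_CTL and 5420, 6095 and 8423 CPM in J7_MLKL 1, 2 and 3.

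The size of the reduction differed among the markers. The acyl-CoA synthetase gene Acsl1 went to 3481, 3263 and 3441 CPM in J7_CTL but to 231, 306 and 218 CPM in J7_MLKL, from 14.7 to 20.6 CPM at J0 (difference -4.003 ± 0.18, edgeR adjusted p 9.41e-09). The lipoprotein lipase gene Lpl rose from 244 to 7435 CPM in CTL and from 434 to 1998 CPM in MLKL (-2.76 ± 0.16). The fatty acid carrier Fabp4 reached 7657, 7634 and 8109 CPM in J7_CTL and 723, 883 and 2018 CPM in J7_MLKL. Because Fabp4 also began lower in MLKL, at 1.26 ± 0.33 against 6.05 ± 0.29 CPM, its difference of changes was -0.44 ± 0.53 and did not pass the test (edgeR adjusted p 0.486). Without both libraries that stood apart, 16 of the markers were lower and 0 higher. When the genotype field set the J7 libraries, 9 were higher and 2 lower.

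Fat synthesis and storage genes showed the same reduction. Of 14 tested genes of fatty acid and triglyceride synthesis, 12 had a lower difference (background 26.3%) and 0 a higher one (median -1.85). The desaturase gene Scd1 reached 5202 to 5639 CPM in J7_CTL and 241, 294 and 262 CPM in J7_MLKL, from 48.4 to 69.0 CPM at J0 in both genotypes (-4.19 ± 0.16, edgeR adjusted p 3.99e-09). The glycerol phosphate dehydrogenase gene Gpd1 (-3.10 ± 0.39), the triglyceride-forming enzymes Dgat2 (-2.88 ± 0.35) and Dgat1 (-2.56 ± 0.30) and the fatty acid synthase gene Fasn (-1.72 ± 0.13) were lower. Acacb, an acetyl-CoA carboxylase gene, rose in both with a difference of -0.28 ± 0.14 (edgeR adjusted p 0.104). Elovl6, a fatty acid elongase gene, was at 28.8 ± 0.92 and 24.9 ± 2.92 CPM in J0_CTL and J7_CTL, and fell from 25.1 ± 5.70 to 8.88 ± 2.35 CPM in MLKL (-1.31 ± 0.28).

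Of 10 tested lipid droplet and lipolysis genes, 7 had a lower difference (background 26.3%) and 0 a higher one. Mgll, the lipase that releases the last fatty acid of a triglyceride, stood at 0.517, 0.789 and 0.525 CPM in J0_CTL and rose to 29.5, 30.6 and 33.1 CPM in J7_CTL. The MLKL libraries stood at 1.81, 1.66 and 1.74 CPM at J0 and at 1.04, 1.70 and 0.72 CPM at J7, which overlap. The fall in MLKL was called (-0.62 ± 0.25, edgeR adjusted p 0.046) and the difference of changes was -6.30 ± 0.35 (edgeR adjusted p 4.46e-08). The lipases Lipe (-2.38 ± 0.31) and Pnpla2 (-2.26 ± 0.39) and the cofactor Abhd5 (-1.96 ± 0.08) were lower. The droplet coat gene Plin1 reached 1393 ± 29.8 CPM in J7_CTL and 193 ± 41.2 CPM in J7_MLKL, with 3 reads in J0_MLKL. Under the genotype field's labels, 12 synthesis genes were higher and 1 lower, and 2 droplet genes were higher and 1 lower.

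Fewer mitochondrial and amino acid genes had counts in all groups. All 6 tested genes of branched-chain amino acid breakdown had a lower difference (median -1.69), as did 4 of 6 of fatty acid oxidation and 4 of 5 of the respiratory chain and TCA cycle, with 0 higher (background 26.3% lower). Dbt, a subunit of the branched-chain ketoacid dehydrogenase, rose from 8.22, 7.96 and 9.45 to 118, 116 and 118 CPM in CTL. In MLKL it stood at 13.5, 11.1 and 13.1 CPM at J0 and at 15.5, 16.9 and 6.88 CPM at J7 (-3.76 ± 0.35, edgeR adjusted p 2.48e-06). The citrate synthase gene Cs (-1.70 ± 0.08), the cytochrome c gene Cycs (-2.54 ± 0.34) and the carnitine enzyme gene Cpt2 (-1.39 ± 0.23) rose in both and less in MLKL. Of the thermogenic list, 1 of 4, the potassium channel gene Kcnk3, was lower (-2.40 ± 0.25), a share near the background of 26.3%. Of 4 tested insulin genes, 1 was lower, the phosphodiesterase gene Pde3b (-1.63 ± 0.34), a share near the background of 26.3%. The 2 called higher (background 39.4%) were the adaptor gene Grb14 (2.38 ± 0.15) and the phosphatase gene Ptpn1 (0.27 ± 0.08, but -0.06 with DESeq2's own size factors). With the genotype field in place of the title the numbers higher and lower were 4 and 0 for branched-chain genes, 3 and 1 for oxidation, 3 and 0 for the respiratory chain and TCA cycle, 2 and 0 for the thermogenic list and 3 and 0 for the insulin list.

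Cholesterol genes moved in opposite directions in the 2 genotypes. All 9 tested members had a lower difference (background 26.3%, median -1.86). All 9 rose in CTL, and in MLKL 8 fell (background 33.5%) and 0 rose. Hmgcs1, which commits acetyl-CoA to the sterol pathway, stood at 88.6, 84.3 and 90.0 CPM in J0_CTL and at 450, 438 and 424 CPM in J7_CTL. The MLKL libraries stood at 86.5, 81.9 and 86.0 CPM at J0 and fell to 55.9, 57.9 and 60.1 CPM at J7. The J0 groups overlapped and the J7 groups were far apart (difference -2.89 ± 0.09, edgeR adjusted p 5.98e-10). The regulator gene Srebf2 was lower (-1.07 ± 0.08), and Hsd17b7 was the member whose change in MLKL was not called (-0.29, edgeR adjusted p 0.22). By the genotype characteristic, 6 of 8 were higher and 0 lower.

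The Hmgcs1 promoter (RefSeq, GRCm38.p6, chr13:119690101-119690400, plus strand) is given because that gene had the largest difference among the cholesterol genes with a matched promoter. The sterol response element TCACNCCAC, searched on both strands and marked in capitals, was found in 1 of 5 matched members against 330 of 27025 promoters (1.22%).
Hmgcs1: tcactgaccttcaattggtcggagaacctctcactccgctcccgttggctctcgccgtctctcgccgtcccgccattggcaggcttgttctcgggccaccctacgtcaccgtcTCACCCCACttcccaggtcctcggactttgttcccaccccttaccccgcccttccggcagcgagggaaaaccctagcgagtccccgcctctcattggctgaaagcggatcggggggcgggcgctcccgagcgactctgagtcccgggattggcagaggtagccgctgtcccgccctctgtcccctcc

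All 8 tested glycolysis and hypoxia genes had a lower difference (background 26.3%), with a median of -2.17. Egln3, an oxygen-sensing prolyl hydroxylase that hypoxia induces, rose from 20.2, 20.1 and 19.9 to 424, 455 and 421 CPM in CTL. In MLKL it stood at 10.4, 10.4 and 10.3 CPM at J0 and fell to 7.76, 8.24 and 9.91 CPM at J7 (difference -4.72 ± 0.13, edgeR adjusted p 3.3e-10). Bnip3, a mitophagy receptor gene, reached 655 ± 30.6 CPM in J7_CTL and 47.7 ± 3.00 in J7_MLKL (-3.83 ± 0.10), and the hexokinase gene Hk2 406 ± 3.88 and 31.96 ± 6.25 (-3.51 ± 0.20). The glucose transporter gene Slc2a1 rose in CTL and fell in MLKL (-2.40 ± 0.10). Of 5 tested stress genes (unfolded protein and integrated stress responses), 4 were lower and 0 higher (3 higher and 2 lower by the genotype field), with Xbp1 at -2.46 ± 0.19 and the serine synthesis gene Psat1, which rose in CTL and fell in MLKL, at -3.42 ± 0.19. With J7 taken by the genotype field, 3 glycolysis and hypoxia genes were higher and 2 lower.

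**Figure D4:**
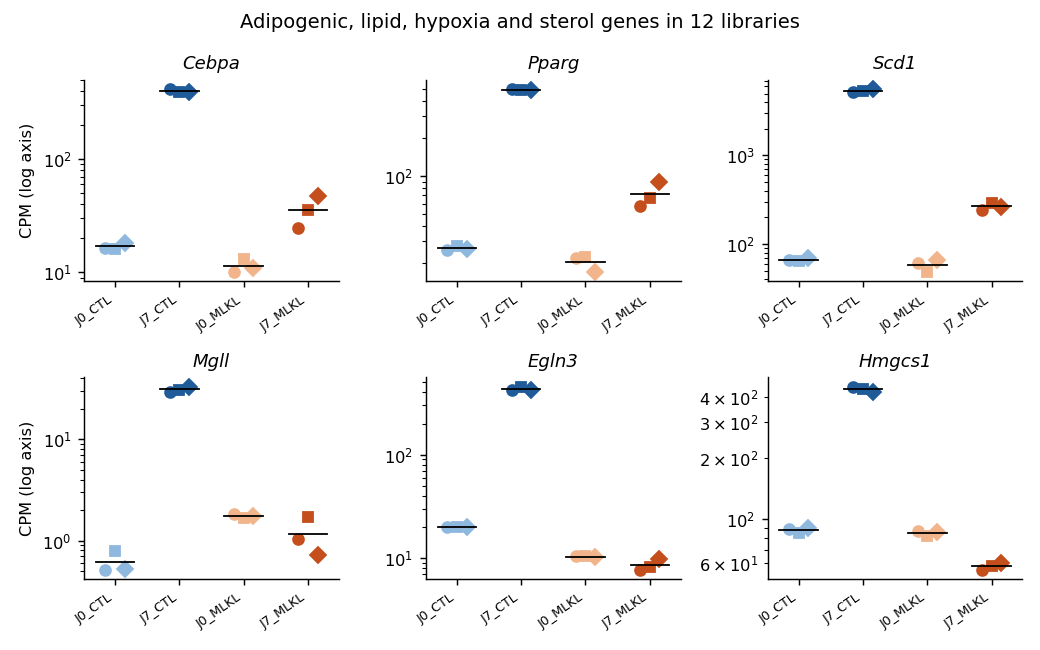
Levels of the adipogenic factors Cebpa and Pparg, the lipid genes Scd1 and Mgll, the hypoxia gene Egln3 and the sterol gene Hmgcs1 in CPM (log axis) in each library (points; circle, square and diamond for replicates 1, 2 and 3) with group means (bars). All 3 J7_CTL libraries lie above every other library, while J7_MLKL lies above J0_MLKL for Cebpa, Pparg and Scd1 and below it for Egln3 and Hmgcs1.

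Progenitor, matrix and contractile genes were shut down less in MLKL-/- cells. Of 9 tested preadipocyte and mesenchymal progenitor genes, all fell in CTL (background 47.5%) and 4 fell in MLKL (background 33.5%). The difference was higher in 8 (background 39.4%) and lower in 0 (median 1.85). Pi16, a surface marker of early progenitors, fell from 40.4, 40.5 and 43.5 to 0.46, 0.37 and 1.04 CPM in CTL. The MLKL libraries stood at 11.8, 20.6 and 12.6 CPM at J0 and at 8.88, 8.52 and 15.3 CPM at J7, which overlap (difference 5.55 ± 0.50, edgeR adjusted p 1.86e-06). The surface antigen Thy1 (2.08 ± 0.23) and Gata2, a repressor of adipogenesis (1.85 ± 0.24), fell in both and less in MLKL. Twist2 fell in CTL and had 59.4 ± 14.9 and 69.7 ± 33.3 CPM at J0 and J7 in MLKL (2.13 ± 0.40). Cd34 was not called (0.70 ± 0.50, edgeR adjusted p 0.237). When the genotype field set the J7 libraries, 3 were higher and 5 lower.

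Of 18 tested fibrillar matrix genes, 16 had a higher difference (background 39.4%) and 1, the collagen chain Col6a2, a lower one (-0.85 ± 0.10). Col1a1, the main chain of type I collagen, fell from 3774, 3600 and 3627 to 723, 726 and 718 CPM in CTL. In MLKL it fell from 5447, 6062 and 5533 to 3775, 3605 and 3717 CPM, which is near the J0_CTL level (1.70 ± 0.08, edgeR adjusted p 1.63e-08). The proteoglycan decorin, Dcn, fell in CTL and rose in MLKL, from 872 ± 64.9 to 1109 ± 50.4 CPM (2.96 ± 0.09), as did the microfibril gene Mfap5 (3.24 ± 0.30) and lumican, Lum (2.17 ± 0.12). Basement membrane genes went the other way: 5 of 6 tested were lower (background 26.3%) and 0 higher. The laminin chain Lamb1 rose in CTL and fell in MLKL (-1.52 ± 0.17). Over the alternatives with libraries by title, 3 to 6 of the list were lower. The lowest count, 3, came without any 1 of the CTL libraries and without J0_MLKL 1 or J0_MLKL 3, and 2 were higher and 2 lower by the genotype field. Under the genotype field's labels, 2 fibrillar genes were higher and 14 lower.

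Of 8 tested contractile and YAP/SRF targets, 6 had a higher difference (background 39.4%) and 0 a lower one (median 3.31). Acta2, smooth muscle actin, fell from 163, 171 and 191 to 22.3, 20.7 and 17.6 CPM in CTL, and rose from 293, 429 and 394 to 595, 528 and 1127 CPM in MLKL. Every J7_MLKL library lay above every other library, and J7_MLKL 3 was the highest (4.11 ± 0.38, edgeR adjusted p 2.32e-06). The YAP target Cyr61 fell in CTL, from 30.0 to 14.8 CPM, and rose in MLKL, from 46.2 ± 0.90 to 224 ± 11.4 CPM (3.27 ± 0.10). Of the Wnt ligands, 3 of 5 were higher (background 39.4%). Wnt6 was among them (4.49 ± 0.76), but it had 5 reads in all J7_CTL libraries, and its change in MLKL was not called (-0.22). Another was the adipogenesis inhibitor Wnt10b, which stood at 2.46, 2.11 and 1.89 CPM in J0_MLKL and 1.27, 1.52 and 1.10 CPM in J7_MLKL but had 2 reads in all J7_CTL libraries. Of 7 Wnt receptors, antagonists and targets, 4 were higher, led by the antagonist Sfrp2 (3.27 ± 0.17), and 1, the nuclear factor Lef1, lower (-0.92 ± 0.24). With the genotype field in place of the title, 0 contractile genes were higher and 5 lower, 0 Wnt ligands were called, and 0 Wnt receptors, antagonists and targets were higher and 4 lower.

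**Figure D5:**
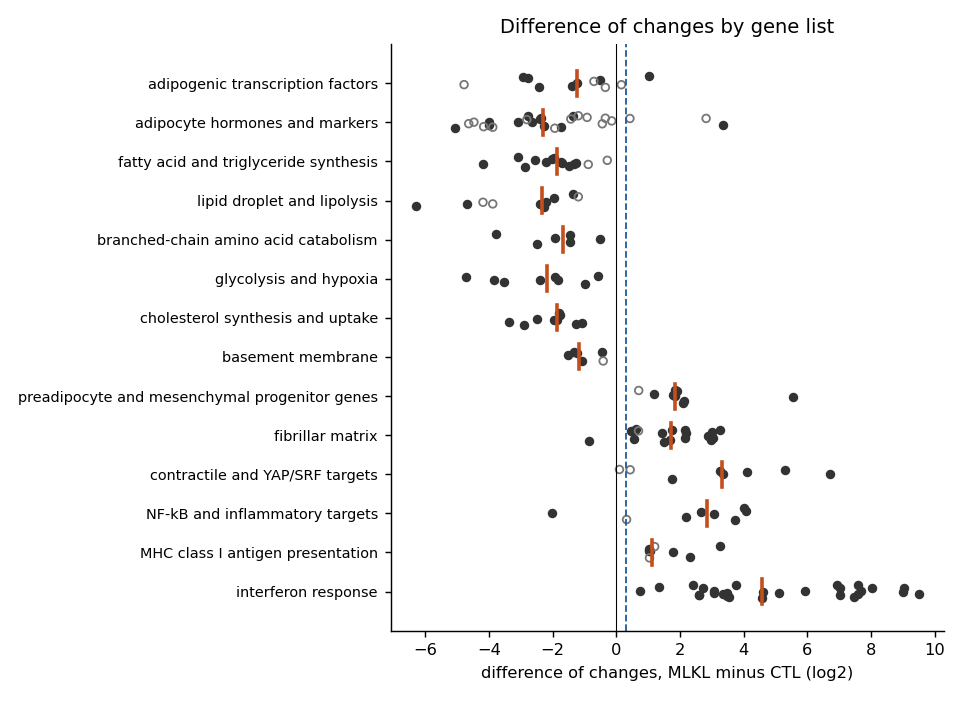
Difference of changes (log2, x axis) of each tested member of 14 gene lists (rows); filled points passed the test and open points did not, short bars are list medians and the dashed line is the median of all 3032 genes, 0.32. Interferon, contractile, inflammatory, matrix and progenitor lists lie to the right (medians 1.73 to 4.59) and lipid, sterol, glycolysis and adipogenic lists to the left.

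Other lists had calls in both directions. Of 12 tested p53 targets, 4 were higher and 3 lower, shares near the background (39.4% and 26.3%), with the kinase gene Plk2 at 1.84 ± 0.08 and the cell cycle inhibitor Cdkn1a at -0.98 ± 0.23. Only 2 p53 targets were higher without J0_CTL 1, J0_CTL 2, J7_CTL 2, J0_MLKL 2, J7_MLKL 1 or J7_MLKL 2, and 5 were higher and 5 lower without both libraries that stood apart. Of 7 cell cycle genes, 1 was higher, Ccnd1 (2.20 ± 0.28), which fell in both genotypes, and 1 lower, Ccne2 (-0.77 ± 0.22). Of 14 immediate early genes, 5 were higher and 6 lower, from Atf3 at -2.75 ± 0.35 to Junb at 1.43 ± 0.17. Of 5 antioxidant genes, 1 was higher, Nqo1 (1.82 ± 0.18), and 3 lower. By the genotype field the numbers higher and lower were 8 and 1 for p53 targets, 2 and 2 for cell cycle genes, 3 and 5 for immediate early genes and 1 and 0 for antioxidant genes. Markers of cell types other than fibroblasts and adipocytes were mostly without counts in all groups: endothelium 0 of 6, macrophage 1 of 7, epithelium 1 of 5, osteoblast 2 of 7, chondrocyte 2 of 6 and skeletal muscle 2 of 9. The macrophage marker with counts, Cd14, stood at 12.6 to 14.6 CPM in J0_CTL, 9.37 to 12.3 in J7_CTL, 8.88 to 15.2 in J0_MLKL and 32.95, 35.3 and 57.2 in J7_MLKL. The defining markers without counts in all groups were not analysed here, and the part of other cell types in the results was not tested.

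Beyond the lists, the genes with the lowest differences rose strongly in CTL. Cmbl, a hydrolase gene, rose from 0.23, 0.45 and 0.24 to 42.1, 42.0 and 43.1 CPM in CTL, 139-fold. In MLKL it stood at 1.64, 2.11 and 1.31 CPM at J0 and at 1.16, 1.10 and 2.99 CPM at J7, which overlap (difference -7.05 ± 0.55, edgeR adjusted p 5.76e-07). Haptoglobin, Hp, an acute-phase protein that adipocytes make, rose 333-fold in CTL and 11.8-fold in MLKL (-4.83 ± 0.44). Selenbp1 (-6.06 ± 0.74), the calcium pump Atp2a3 (-4.40 ± 0.33), and Prg4, which encodes the lubricant lubricin (-4.36 ± 0.50), rose in both. The ergothioneine transporter Slc22a4 rose in CTL and had 1.23 ± 0.31 and 1.40 ± 0.21 CPM in MLKL (-4.68 ± 0.34).

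A small set rose in CTL and fell in MLKL. The receptor tyrosine kinase gene Mst1r rose from 0.345, 0.514 and 0.807 to 13.3, 13.3 and 13.9 CPM in CTL, and fell from 2.50, 2.71 and 2.40 to 1.54, 1.94 and 0.98 CPM in MLKL (-5.45 ± 0.37, edgeR adjusted p 1.86e-07). Apln, the gene of the secreted peptide apelin, rose from 19.3, 18.6 and 17.3 to 97.2, 98.9 and 94.4 CPM in CTL and fell from 25.4, 29.0 and 24.1 to 7.69, 9.17 and 10.02 CPM in MLKL (-3.97 ± 0.15). The groups of Apln did not overlap at either time. Nhsl2 (-4.63 ± 0.53) and Gchfr, a regulator of tetrahydrobiopterin synthesis (-4.25 ± 0.65), did the same with wider spread. The J0_MLKL libraries of Nhsl2 held 9.53, 3.10 and 10.5 CPM, with J0_MLKL 2 the lowest.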

How the data were processed

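Per the submitters' processing notes, the build was mm10 and the tools were HISAT2, DESeq2, featureCounts 1.5.0-p3 and FastQC 0.11.9. Each of the 7 deposited comparison tables gives raw read counts per gene and library. The deposited tables also give the authors' normalised counts (signal, a count divided by a size factor of the library) and FPKM, which the authors computed per kilobase and per library. The deposited log2 fold changes, p-values and adjusted p-values are the authors'. Other deposited columns hold coordinates and gene lengths.

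Raw counts were joined by gene identifier with Python 3.11.15 and pandas 2.3.3, and 0 of 88950 repeated counts differed. Library totals were recovered from counts, FPKM and lengths. Genes with counts in all 4 groups were fitted with edgeR 4.0.16 in R 4.3.3 (filterByExpr, quasi-likelihood F test, 1 coefficient per group, Benjamini-Hochberg adjustment over 3032 genes, called at 0.05). Library sizes were the authors' size factors of each change, recovered as count over normalised count, since TMM factors would be centred on genes chosen for being different. They lay within 0.984 to 1.014 of the totals. Standard errors come from the F statistic. CPM uses the totals and is not length-scaled. The fit was also run on simulated counts in which a small part of the genes differed, in J7_MLKL only, and no library stood apart. That setting is unlike these data, so the run does not test the calls reported here.

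Alternatives were TMM, totals only, DESeq2 1.42.0, limma 3.58.1 (voom), other filters, a replicate block, leaving out libraries, and J7 libraries by genotype characteristic. Removal of the trend with gene length was added after the data were seen. The members and lists were chosen with earlier results of these data known. Named genes are protein-coding: Mlkl and Ripk3, the 10 highest and 10 lowest called differences with over 10 reads in each group, at least 5 CPM in 1 group and the same call in every fit leaving out 1 library, 6 of each opposite direction, and up to 4 called members per list, with members a count turns on. Further list members are given as values. A few named genes are not reported here. Antisense and overlapping reads cannot be told apart in these tables. Promoters are RefSeq's, and the genome in hand is of a later build and was not used.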

Additional observations from a re-analysis of the deposited data

Results flagged for a closer look

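The difference of changes is itself a test between genotypes, so each gene called in it differs between CTL and MLKL-/- cells by that test: 1194 genes with a higher difference and 798 with a lower one. The 12 below also changed in opposite directions, each change passing edgeR's test on its own. Those that fell in CTL and rose in MLKL were Oas2 (difference 9.51), Oasl2 (9.04), Ifit1 (8.99), Rtp4 (8.04), Ifit3b (7.02) and Ifit3 (7.01), all interferon-response genes. Those that rose in CTL and fell in MLKL were the lipase gene Mgll (-6.30), the receptor kinase gene Mst1r (-5.45), the prolyl hydroxylase gene Egln3 (-4.72), Nhsl2 (-4.63), Gchfr (-4.25) and the apelin gene Apln (-3.97). The fall of Egln3 in MLKL was small, 1.20-fold, and that of Mgll rested on levels between 0.72 and 1.81 CPM.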

How the results depend on the processing

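With groups by title, the counts of called genes kept within 1.5 times of those reported, from 1871 to 2366 over all fits with 3032 genes or a similar number, except that with an absolute log2 value over 1 the number lower was 498 and the number changed in MLKL 1128. Leaving out each library in turn gave 1871 to 2181 called genes, and 1769 genes kept call and sign in all 12 such fits. With limma voom 1381 were higher and 985 lower, and with the trend by gene length removed 1239 and 834. Same-numbered libraries of different groups had correlations of their deviations from -0.69 to 0.47. Both extremes lay between J0_MLKL and J7_MLKL, and between other groups the values ran from -0.074 to 0.072. J0_MLKL 2 and J7_MLKL 3, the libraries that stood apart, correlated at 0.74, so these values cannot show whether the MLKL libraries are paired by number. With a replicate block 1154 were higher and 772 lower. Among named genes the sign turned once, for Ptpn1, to a value near 0 (-0.058 with DESeq2's own size factors). Calls were lost in some fits for Nlrc5, Nid2, Hmox1, G0s2 and Wnt5a, and Mlkl was called in some; the cause was not tested. The adipocyte markers called lower ranged from 11 to 21.

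With the J7 knockout libraries taken by the genotype characteristic and TMM factors, 850 of 2838 genes were higher and 822 lower, 449 calls were shared with the same sign, and 27 of 112 named calls held. A turned sign is listed whether or not the value was called in this fit. Several of the values lie near 0, such as those of Acsl1 and Gchfr, and are lost rather than opposite differences. The sign turned for Acadm 0.28, Acsl1 0.019, Apln 0.31, Atf3 0.76, Btg2 0.40, Cat 1.03, Ccne2 0.27, Cdkn1a 1.16, Cebpa 0.54, Col15a1 1.61, Col18a1 0.71, Cpt2 0.80, Cs 0.68, Cycs 0.13, Dbt 0.090, Dgat2 2.43, Dld 0.27 and Dnajb9 0.20. It also turned for Ebf2 1.70, Egln3 0.85, G0s2 0.35, Gchfr 0.030, Gpd1 0.43, Hk2 0.25, Hmgcs1 0.22, Hsd17b7 0.66, Kcnk3 1.01, Lipe 0.28, Mut 0.72, Nid2 0.062, Nr1h3 0.13, Ogdh 0.64, Pde3b 0.62, Pex11a 0.59, Pnpla2 0.053 and Scd1 1.03. In the other direction it turned for Acta2 -1.70, Ccl7 -0.84, Ccnd1 -0.57, Csf1 -0.17, Cxcl5 -0.80, Cyr61 -0.79, Dcn -0.56, Dmp1 -0.59, Egr3 -1.09, Fzd1 -0.36, Fzd2 -0.75, Klf2 -0.54, Mfap5 -3.20, Ror2 -4.27, Sfrp2 -0.25, Sox9 -0.056, Thy1 -0.71, Twist2 -0.68 and Wnt6 -1.24. These are other libraries, so the values belong to another comparison.

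Limits are the preselected genes, few reads at J0 for adipocyte genes, 3 libraries per group of unstated origin, and the J7 identity, which rests on titles. Levels compare a gene between libraries, not genes with each other.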
